A study of Mus musculus with 96 samples.

Results

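The thin part of Henle's ascending limb (ATL) and the inner medullary collecting duct (IMCD) run side by side in the deepest zone of the mouse kidney, and their messenger RNAs were compared in 13 of the 96 samples of the series. The members were the 4 ATL libraries, 1 dissected piece from each of 4 mice (numbered 2, 3, 4 and 6), and the 9 IMCD libraries, 3 pieces from each of 3 mice (numbered 1, 2 and 3). All were tubules microdissected by hand from kidneys of male C57BL/6 mice aged 6 to 8 weeks that ate and drank freely, and the labels name no drug or engineered allele for any group. The series held 93 such libraries of 14 tubule segments and the glomerulus from 53 mice, and the remaining 3 samples, single-cell runs, were not analysed here. Another pair of groups served for comparison: 4 libraries from 3 mice of the inner medullary part of the long descending limb (DTL3) and 7 libraries from 4 mice of the outer medullary collecting duct (OMCD). Libraries were made from dissected tubules with an amplification kit for very small inputs, so a value describes all cells of the fragment, including any that clung to it. Fewer cells of a type and less RNA per cell cannot be told apart in such data.

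The ascending thin limb is a tube of flat cells that lets sodium chloride pass but hardly any water, whereas the inner medullary collecting duct is the last site at which the antidiuretic hormone vasopressin adjusts the uptake of water and urea from urine. Both lie in tissue that becomes very salty and rich in urea, with little oxygen, and cells there store organic solutes, rely largely on glycolysis and make protective chaperones. The ascending thin limb derives from the nephron, as the thick limb above it does, while the collecting duct derives from the ureteric bud.

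Levels are given as TPM, a share of all transcripts of the library that is corrected for transcript length. The TPM given for a mouse is the mean over its pieces. A difference is the mean log2(TPM + 1) of ATL minus that of IMCD, with the pieces of a mouse averaged on that log2 scale, and is positive where ATL was higher. A gene was called when the limma test over all 15 groups gave an adjusted p under 0.05 and the difference was at least 1 log2 unit. Of 33793 genes tested, 5043 were called higher in ATL (14.9%) and 1869 higher in IMCD (5.53%). All 4 ATL mice lay above all 3 IMCD mice in 3394 genes (10.0%) and below them in 2557 (7.57%), and 2323 (6.87%) and 1515 (4.48%) met both conditions. Over the 13 libraries taken singly, 2058 genes (6.09%) lay wholly higher in ATL and 1495 (4.42%) wholly higher in IMCD. The files hold no counts, so the sequencing depth is unknown. The labels do not say whether animals shared a litter or day, so p-values measure only the spread between the mice of this series. That spread, and each SE, was estimated over the mice of all 15 groups, not from ATL and IMCD mice alone. With ATL and IMCD mice alone in the fit, 1051 genes were called higher in ATL and 762 higher in IMCD.

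ATL mice 4 and 6 stood apart. They had 23465 and 24647 genes at 1 TPM or more, against 13949 and 13532 in ATL mice 2 and 3 and 13595 to 14712 in the IMCD mice. Odorant and vomeronasal receptor genes, most of which are known from the nose, numbered 601 and 703 at that level in mice 4 and 6, and 3 to 33 in the other mice. The nuclear RNA Malat1 was at 204225 and 111606 TPM in ATL mice 4 and 6. It was at 83619 and 74332 TPM in ATL mice 2 and 3 and at 48820 to 103484 TPM in the IMCD mice. The 10 most abundant genes held 32.1% of the TPM in ATL mouse 4 and 15.6% to 23.1% in the other mice. With mice 2 and 3 alone, 2543 genes (7.53%) were called higher in ATL and 2159 (6.39%) higher in IMCD; with mice 4 and 6 alone the counts were 11849 (35.1%) and 2130 (6.30%). Genes that encode proteins made up 58.3% of the genes called higher in ATL with all mice, 85.3% with mice 2 and 3 and 45.6% with mice 4 and 6. The calls that held in all 3 sets of ATL mice numbered 1717 (5.08%) higher in ATL and 1240 (3.67%) higher in IMCD. Quantile normalization turned the balance of calls, with 41.6% of them higher in ATL against 73.0% without it; the median of all differences was 0.33, and 0.07 after it. Below, a gene is written as higher in one segment only where it was called with all mice, and where mice 2 and 3 alone or mice 4 and 6 alone did not give the call this is stated beside it.

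**Figure D1:**
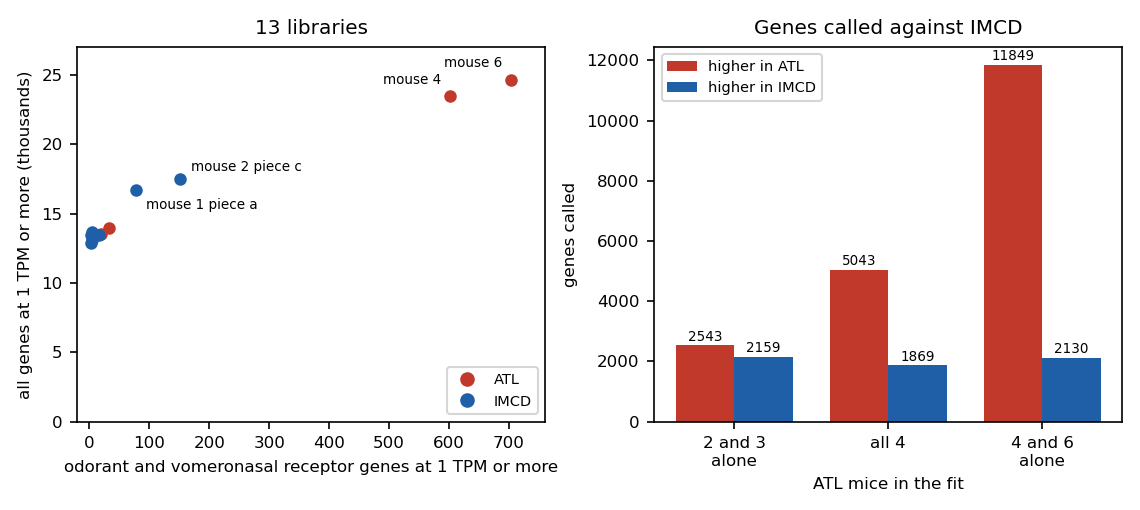
The left panel plots, for each of the 13 libraries, the number of odorant and vomeronasal receptor genes at 1 TPM or more (x axis) against the number of all genes at that level (y axis, in the units printed on it), and the right panel gives the genes called in each direction with 3 sets of ATL mice. ATL mice 4 and 6 lie far to the right with 601 and 703 receptor genes, 2 IMCD pieces follow with 152 and 78, and genes called higher in ATL range from 2543 to 11849 while those higher in IMCD stay between 1869 and 2159.

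The segment labels were checked against genes that tell ATL from IMCD, which need not tell either from its neighbouring segments. All 4 ATL markers (Psca, Cldn10, Tfap2b and Sptssb) were higher in ATL and all 7 IMCD markers (Aqp2, Slc14a2, Avpr2, Aqp4, Fxyd4, Gata3 and Elf5) were higher in IMCD, in every library; these lists were drawn up with earlier results on these libraries known and are no independent evidence. Summed over the list, the ATL markers reached 15085 to 25032 TPM in ATL mice and 4.34 to 15.8 TPM in IMCD mice. The IMCD markers summed to 31413 to 36716 TPM in IMCD and 165 to 248 TPM in ATL. Most of the latter was Avpr2, the vasopressin V2 receptor, at 237, 211, 108 and 201 TPM in ATL mice 2, 3, 4 and 6. IMCD mice had 719, 1289 and 1026 TPM of it, and the difference was -2.43 (SE 0.31, adjusted p = 2e-08).

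The genes with the largest differences toward ATL encode proteins of several kinds. Psca (prostate stem cell antigen, a small protein tethered to the outer membrane) was the most abundant gene of ATL after the nuclear RNA Malat1 when mitochondrial and ribosomal protein genes are set aside, at 16933, 12848, 9765 and 15484 TPM in mice 2, 3, 4 and 6, and stood at 3.27, 8.33 and 9.88 TPM in the 3 IMCD mice. No ATL library came near any IMCD library, and the difference was 11.41 (SE 0.32, adjusted p = 3.72e-30). Igfbp2, a secreted binder of insulin-like growth factors, was at 2608, 6468, 1979 and 2443 TPM in ATL and under 1 TPM in each IMCD mouse (difference 11.29, SE 0.36). Sptssb, a small subunit of the enzyme that starts sphingolipid synthesis, was at 2062 to 4663 TPM in ATL and 0.0867 to 4.10 TPM in IMCD. Sostdc1, a secreted inhibitor of bone morphogenetic protein and Wnt signalling, was at 494 to 855 TPM in ATL and under 1 TPM in IMCD. Nccrp1 (289 to 790 TPM in ATL) and Ccdc3 (235 to 755 TPM) were likewise under 1 TPM in each IMCD mouse.

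Beside the water and urea transport genes described below, the genes with the largest differences toward IMCD included enzymes, a keratin and others. Rnf183, a membrane-bound ubiquitin ligase known for its high level in the kidney medulla, was at 732, 850 and 680 TPM in IMCD and was listed at 0 in all 4 ATL libraries. The keratin gene Krt23 was also listed at 0 in the 4 ATL libraries and stood at 243, 195 and 394 TPM in IMCD. The alcohol dehydrogenase gene Adh1 had 895, 500 and 860 TPM in IMCD and 0 to 5.77 TPM in ATL. Tmem45b (346 to 649 TPM) and Spink8, of a family of protease inhibitors (173 to 771 TPM), stood at or under 1.55 TPM in each ATL mouse. These segregated completely between the 13 libraries.

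**Figure D2:**
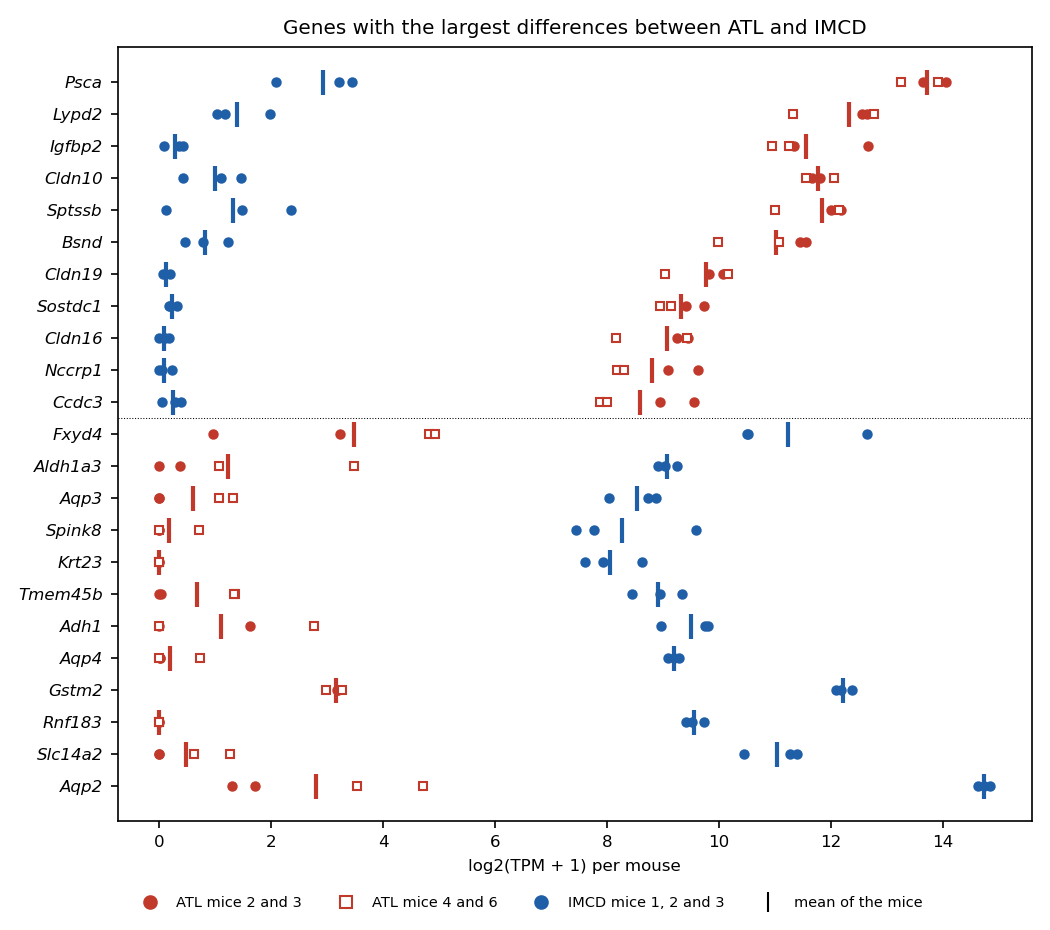
The plot gives log2(TPM + 1) per mouse (x axis) for 23 of the genes with the largest differences (rows, those higher in ATL above the dotted line); filled red circles are ATL mice 2 and 3, open red squares ATL mice 4 and 6, blue circles the 3 IMCD mice, and bars the means. No gene shown has overlapping groups, and for the genes higher in IMCD the ATL mice 4 and 6 often lie to the right of mice 2 and 3, as for Aqp2 at 25.1 and 10.6 TPM against 1.46 and 2.26 TPM.

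Counts of gene lists are read against the share called over all genes, given first for ATL, then for IMCD. It was 14.9% and 5.53% with all mice, 7.53% and 6.39% with ATL mice 2 and 3 alone, 35.1% and 6.30% with mice 4 and 6 alone, and 6.34% and 8.90% after quantile normalization. Of 10 aquaporin (water channel) genes tested, none was higher in ATL and 4 (40%) in IMCD (all genes 14.9% and 5.53%). With mice 4 and 6 alone, 2 (20%; all genes 35.1%) were called higher in ATL, Aqp9 and Aqp11. Aqp2, the vasopressin-controlled channel of the apical membrane, was at 27334, 29536 and 25310 TPM in IMCD, and at 1.46, 2.26, 25.1 and 10.6 TPM in ATL mice 2, 3, 4 and 6. That was a difference of -11.93 (SE 0.49, adjusted p = 3.89e-24), the largest toward IMCD among the genes named by size. Aqp3 and Aqp4 form the exit path for water across the basolateral membrane. Aqp3 was at 469, 260 and 422 TPM and Aqp4 at 585, 544 and 627 TPM in the IMCD mice, with no ATL mouse above 1.51 TPM for either. Aqp5 was low in IMCD (3.29 to 5.79 TPM) and lower in ATL (0 to 1.41 TPM; difference -1.72, and -0.75 and not called with a pseudocount of 5 TPM). Aqp1, the constitutive channel of the descending limb, was near the floor in both segments, at 0.02 to 1.08 TPM in ATL and 0.04 to 2.03 TPM in IMCD (difference -0.05, SE 0.48, adjusted p = 0.975).

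The upstream sequence of Aqp2 is shown because Gata2 and Gata3, zinc finger factors named for the GATA motif, and the cAMP pathway downstream of vasopressin are known to act on this gene, and because the genes of GATA factors were themselves higher in IMCD (below). The windows hold the 250 bases before the annotated start, taken from RefSeq on GRCm38.p6, and capitals mark every match to AGATAA (known for GATA factors), GCCNNNGGC (known for AP-2 factors), AAGGTCA (estrogen-related receptors) or CGTCA (the inner part of the cAMP response element), on either strand. Of the 23 genes of the plot of leading genes, 13 had a window in the sequence table, 6 of them higher in ATL and 7 higher in IMCD. For contrast, the windows of Adh1, higher in IMCD, and of Cldn10 (the first of its 2 starts) and Cldn16, higher in ATL, follow.
Aqp2, chr15:99578806-99579055, plus strand: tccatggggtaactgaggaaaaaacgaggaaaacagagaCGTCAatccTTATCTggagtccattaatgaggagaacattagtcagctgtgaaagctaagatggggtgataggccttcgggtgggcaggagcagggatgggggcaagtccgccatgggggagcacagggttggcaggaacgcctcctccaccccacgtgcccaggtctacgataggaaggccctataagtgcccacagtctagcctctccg
Adh1, chr3:138277335-138277584, plus strand: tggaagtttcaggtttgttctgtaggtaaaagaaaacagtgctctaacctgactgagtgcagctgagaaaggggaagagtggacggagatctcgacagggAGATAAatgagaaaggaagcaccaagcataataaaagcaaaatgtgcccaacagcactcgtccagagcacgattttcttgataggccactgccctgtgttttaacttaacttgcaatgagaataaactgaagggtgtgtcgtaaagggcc
Cldn10, chr14:118787621-118787870, plus strand: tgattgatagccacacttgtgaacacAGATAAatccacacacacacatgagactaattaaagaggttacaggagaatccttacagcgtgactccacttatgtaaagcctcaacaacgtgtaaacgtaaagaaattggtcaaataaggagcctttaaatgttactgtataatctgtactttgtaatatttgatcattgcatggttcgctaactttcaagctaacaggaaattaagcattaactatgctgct
Cldn16, chr16:26462885-26463134, plus strand: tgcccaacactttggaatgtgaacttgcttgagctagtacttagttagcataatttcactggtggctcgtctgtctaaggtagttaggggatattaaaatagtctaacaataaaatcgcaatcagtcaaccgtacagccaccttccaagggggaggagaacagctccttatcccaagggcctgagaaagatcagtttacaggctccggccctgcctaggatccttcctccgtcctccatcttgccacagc
The Aqp2 window held CGTCA at position -211 and, at -202, the reverse complement of AGATAA, counted from the start site. The Cldn16 window held none of the 4 motifs. AGATAA was present in 9.99% and CGTCA in 17.8% of the 32851 windows of all genes. AGATAA occurred in windows of 3 of the 7 genes higher in IMCD (Aqp2, Adh1 and Rnf183) and of 1 of the 6 higher in ATL (Cldn10), and CGTCA in 2 of the 7 (Aqp2 and Rnf183) and 1 of the 6 (Ccdc3). GCCNNNGGC, held by 13.7% of all windows, occurred in none of the 6 ATL genes and 1 of the 7 IMCD genes (Fxyd4), and AAGGTCA, held by 4.08%, in none of the 13. The counts are per gene and the shares per window. The 13 genes held 17 windows, so a gene with 2 windows had more chances of a match. A match is a description of these letters and no evidence of binding.

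Of 2 urea transporter genes, 1 was higher in IMCD (50%; all genes 5.53%). Slc14a2, which encodes the vasopressin-regulated urea transporters, stood at 1401, 2464 and 2681 TPM in IMCD and at 0, 0, 0.55 and 1.40 TPM in ATL (difference -10.55, SE 0.36, adjusted p = 2.87e-27). Slc14a1, the urea transporter of red cells and descending vasa recta, was not called. Among 20 genes of vasopressin and cAMP signalling, 3 were higher in ATL and 2 in IMCD (15% and 10%; all genes 14.9% and 5.53%). The count in ATL was 2 (10%; all genes 7.53%) with mice 2 and 3 alone and 8 (40%; all genes 35.1%) with mice 4 and 6 alone, each near the share over all genes. The cAMP phosphodiesterase genes Pde4d and Pde4a differed in opposite directions: Pde4d was at 22.0 to 75.8 TPM in ATL and 4.10 to 7.41 TPM in IMCD (difference 2.48, SE 0.25), and Pde4a at 2.85 to 6.52 TPM in ATL and 22.9 to 29.7 TPM in IMCD (-2.14, SE 0.27). Adcy6, an adenylyl cyclase, was higher in ATL with all mice (62.4 to 128 TPM against 31.2 to 46.8 TPM), but not called with mice 2 and 3 alone (difference 0.80). Its call was also lost with a pseudocount of 5 TPM, median ratio rescaling or mouse numbers entered as a block, and without ATL mouse 4 or IMCD mouse 1.

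Bsnd, which encodes the small membrane protein barttin, was among the genes that differed most. It was at 2780, 3024, 1011 and 2149 TPM in ATL mice 2, 3, 4 and 6 and at 0.370, 0.713 and 1.36 TPM in IMCD (difference 10.27, SE 0.21). Mouse 4 was the lowest of the ATL mice and still far above each IMCD mouse.

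Of 24 sodium, potassium and chloride transport genes, 3 were higher in ATL and 5 in IMCD (12.5% and 20.8%; all genes 14.9% and 5.53%). With mice 2 and 3 alone there were 4 of each (16.7%; all genes 7.53% and 6.39%). The potassium-chloride cotransporter gene Slc12a4 was at 44.9 to 132 TPM in ATL and 1.48 to 3.49 TPM in IMCD (difference 4.92, SE 0.24). The sodium-potassium-chloride cotransporter gene of basolateral membranes, Slc12a2, was at 19.1 to 30.2 TPM in ATL and 95.4 to 167 TPM in IMCD (-2.22, SE 0.20). The potassium channel genes Kcnj16 (79.3 to 127 TPM) and Kcnk1 (54.4 to 82.7 TPM) were high in IMCD, with at most 1.02 and 2.56 TPM in ATL. Among subunits that tune the sodium pump, Fxyd4 was at 6390, 1475 and 1457 TPM in IMCD mice 1, 2 and 3 and 0.95 to 29.3 TPM in ATL (-7.60, SE 0.48), while Fxyd2 was abundant in both, at 7358 to 13957 TPM and 7182 to 8144 TPM (0.40, SE 0.18, adjusted p = 0.0807). IMCD mouse 1 thus stood far above the other 2 for Fxyd4, with no overlap between the segments.

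Claudins are the membrane proteins that set what passes between epithelial cells at the tight junction. Of 27 junction genes tested, 9 were higher in ATL and 5 in IMCD (33.3% and 18.5%; all genes 14.9% and 5.53%). With ATL mice 2 and 3 alone there were 6 and 4 (22.2% and 14.8%; all genes 7.53% and 6.39%). Cldn10, Cldn16 and Cldn19 encode claudins that admit or shape the passage of cations in the loop of Henle. Cldn10 was at 3241, 3567, 3008 and 4253 TPM in ATL and 0.347 to 1.75 TPM in IMCD (difference 10.90, SE 0.33, adjusted p = 9.33e-29). Cldn19 stood at 522 to 1146 TPM and Cldn16 at 287 to 699 TPM in ATL, both under 1 TPM in IMCD. Cldn3 was at 260, 307, 83.9 and 227 TPM in ATL and 4.54 to 11.1 TPM in IMCD (4.80, SE 0.30). Cldn1 was at 10.7, 19.3 and 25.7 TPM in ATL mice 2, 3 and 6 but 0.26 TPM in mouse 4, and under 1 TPM in IMCD. Toward IMCD, Cldn8, a claudin that seals the collecting duct, was at 682, 1026 and 1148 TPM against 19.2 to 63.9 TPM in ATL (-4.44, SE 0.27). Other junction genes stood with it, Tjp3, of the plaque under the junction, with 136 to 177 TPM against 3.68 to 4.51 TPM, the membrane protein gene F11r with 259 to 497 TPM against 11 to 30.4 TPM, and Ocln (occludin) with 12.9 to 31.8 TPM against 0.02 to 6.22 TPM. Ocln was not called with ATL and IMCD mice alone in the fit. The genes of the corner protein tricellulin (Marveld2) and of cingulin (Cgn) were higher in ATL by 1.14 and 1.07, not called with mice 2 and 3 alone. Cldn4 did not differ beyond its error (86.8 to 215 TPM in ATL, 179 to 221 TPM in IMCD), nor did Cldn7 reach the size required (-0.80), though its libraries did not overlap.

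Of 17 genes tested of a family of small surface and secreted proteins with the Ly6 and uPAR fold, 6 were higher in ATL and 4 in IMCD (35.3% and 23.5%; all genes 14.9% and 5.53%). With mice 4 and 6 alone the share toward ATL, 35.3%, was that of all genes (35.1%); with mice 2 and 3 alone it was 35.3% against 7.53%. Beside Psca, Lypd2 was at 6035, 6414, 2546 and 6980 TPM in ATL and 1.05 to 2.93 TPM in IMCD (difference 11.35, SE 0.60), and Slurp1, which encodes a secreted member, at 43.1 to 153 TPM in ATL and under 1 TPM in IMCD (6.37, SE 0.31). Cd59a, an inhibitor of the complement attack complex, was at 523 to 730 TPM against 217 to 388 TPM (1.24, SE 0.13). Toward IMCD, Ly6e was at 7215, 6086 and 6734 TPM against 53.9 to 109 TPM in ATL (-6.45, SE 0.34). Lypd6b stood at 65.7 to 121 TPM in IMCD and at most 0.49 TPM in ATL, and Plaur, the urokinase receptor, at 161 to 324 TPM against 4.06 to 11.1 TPM. On mouse chromosome 15 Psca, Slurp1, Lypd2 and Ly6e lie within 14 protein-coding genes of each other in the RefSeq order for GRCm38.p6, so neighbours of one cluster stood on opposite sides. Ly6a and Ly6c1, also there, were called higher in ATL but overlapped between libraries. These 2 genes are close paralogues that also mark endothelium, so their values are uncertain. The Ly6c1 TPM of IMCD mice 2 and 3 reached or passed those of ATL. The Ly6c1 difference of 1.71 fell to 0.68 without IMCD mouse 1 and to 0.38 with the pieces averaged before the log, and was called in neither case. Of 8 endothelial markers, 6 (75%; all genes 14.9%) were called higher in ATL and none in IMCD, with 3 (37.5%; all genes 7.53%) for mice 2 and 3 alone and 2 (25%; all genes 6.34%) after quantile normalization. Their TPM summed to 218 to 273 in ATL and to 35.5, 231 and 329 in IMCD mice 1, 2 and 3. The most abundant of them, Plvap, was at 106 to 157 TPM in ATL and at 10.4, 93.2 and 144 TPM in IMCD (2.61, SE 0.55, and 1.28 without IMCD mouse 1). The part of endothelial cells in the Ly6 values was not tested.

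**Figure D3:**
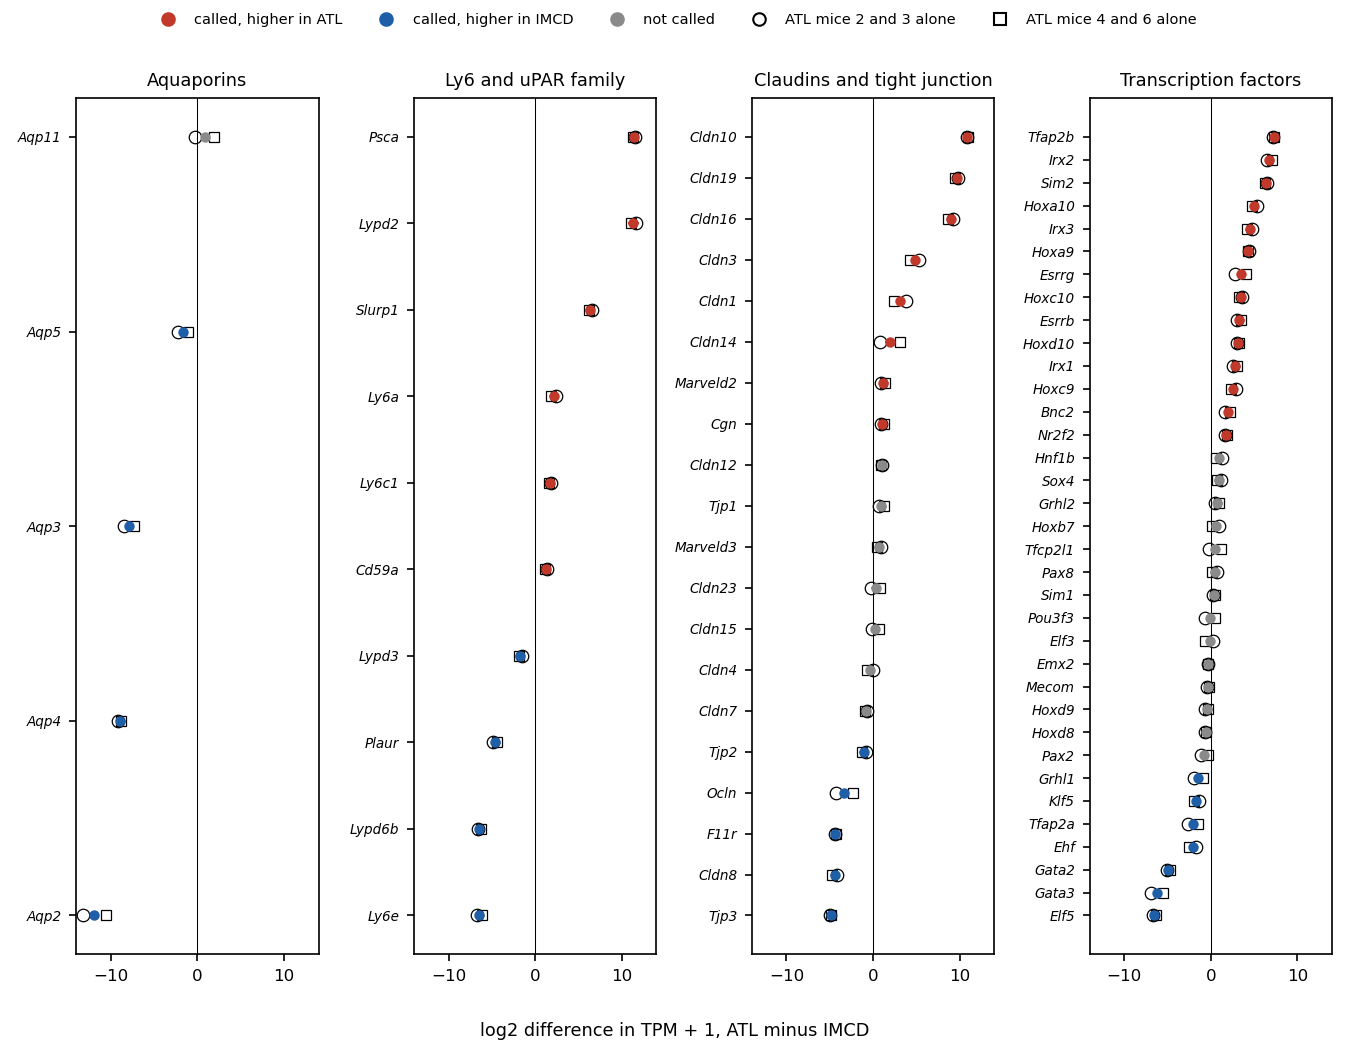
For 4 gene families, each row gives the log2 difference ATL minus IMCD (x axis) of a member with at least 3 TPM in one group; filled points, with SE bars that the point often hides, are red or blue where called and grey where not, and open circles and squares repeat the value with ATL mice 2 and 3 alone and with mice 4 and 6 alone. Aquaporins spread to one side from Aqp2 at -11.93, the other families to both, and for most genes with large differences both sets of ATL mice lie near the value from all mice, Aqp2 (-13.23 and -10.62) and Ocln (-4.32 and -2.28) being farther apart.

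Of 42 transcription factor genes tested, 15 were higher in ATL and 7 in IMCD (35.7% and 16.7%; all genes 14.9% and 5.53%). Tfap2b, of the AP-2 family and known in the distal nephron, was at 196, 205, 250 and 198 TPM in ATL and 0.110 to 0.853 TPM in IMCD (difference 7.26, SE 0.27, adjusted p = 1.1e-25), while its paralogue Tfap2a stood at 5.23 to 6.27 TPM in IMCD and 0.01 to 1.45 TPM in ATL (-2.07, SE 0.27; -0.91 and not called with a pseudocount of 5 TPM). Of 5 Iroquois homeobox genes tested, a family that patterns the middle of the nephron, 4 were higher in ATL (80%; all genes 14.9%) and none in IMCD. Irx2 was at 105 to 170 TPM, Irx3 at 13.9 to 42.9 TPM, Irx1 at 3.4 to 7.67 TPM and Irx5 at 1.8 to 7.77 TPM in ATL, each under 1 TPM in IMCD. Irx5 was not called with a pseudocount of 5 TPM. Sim2 was at 87.9 to 131 TPM in ATL and under 1 TPM in IMCD, whereas its paralogue Sim1 was at 31.2 to 38.1 TPM and 21.3 to 33.9 TPM. Esrrb and Esrrg, orphan nuclear receptors tied to oxidative metabolism, were at 6.87 to 14.0 and 15.8 to 56.7 TPM in ATL and at most 0.110 and 2.17 TPM in IMCD.

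The Hox genes, which set position along the body axis and lie in 4 chromosomal clusters, were also counted over every member tested, a count added after values of these genes were seen. All genes gave 14.9% toward ATL and 5.53% toward IMCD. In the HoxA cluster 9 of 10 (90%) were higher in ATL and none in IMCD, and in HoxC 6 of 8 (75%) and none. In HoxB none was higher in ATL and 5 of 9 (55.6%) in IMCD, and in HoxD 2 of 8 (25%) in each. With ATL mice 2 and 3 alone (all genes 7.53% and 6.39%) the counts were 9 and none, 6 and none, none and 5, and 1 and 2 in the same order. With mice 4 and 6 alone (all genes 35.1% and 6.30%) they were 8 and none (80% toward ATL), 7 and none (87.5%), 1 and 3 (11.1% and 33.3%), and 2 and 2 (25% each). Hoxa7 was at 102, 139, 99.8 and 110 TPM in ATL and 0.887, 1.80 and 1.12 TPM in IMCD (difference 5.73, SE 0.19, adjusted p = 1.12e-27). Hoxa10 was at 56.5, 91.7, 51.3 and 42.2 TPM in ATL and 0.343, 1.05 and 1.60 TPM in IMCD (difference 5.01, SE 0.24), and Hoxa9 at 38.5 to 49.3 TPM against 0.957 to 1.90 TPM (4.35, SE 0.17). Hoxc9, Hoxc10 and Hoxd10 were also higher in ATL, by 2.62, 3.44 and 3.14. Hoxb7, Hoxd8 and Hoxd9 were not called, although the libraries of Hoxd8 did not overlap, with 117 to 268, 34.0 to 42.9 and 15.6 to 23.8 TPM in ATL and 105 to 131, 55.1 to 65.8 and 18.5 to 34.5 TPM in IMCD. Hoxd3 was at 29.2, 23.7 and 20.1 TPM in IMCD and at most 1.45 TPM in ATL (-4.25, SE 0.22). Hoxb6 was at 154, 196 and 173 TPM in IMCD and 76.6 to 93.6 TPM in ATL (-1.01, SE 0.12), and its call was lost with mice 4 and 6 alone (-0.92), without ATL mouse 2 (-0.96) and without IMCD mouse 2 (-0.92). The kidney lineage factors Pax8, Pax2 and Emx2 were not called either, Pax2 being called higher in IMCD with mice 2 and 3 alone (-1.16).

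Toward IMCD stood factors known from the collecting duct and other lining epithelia. Gata3 was at 157, 147 and 166 TPM in IMCD and 0.08 to 3.85 TPM in ATL (difference -6.25, SE 0.24, adjusted p = 6.32e-25), and Gata2 at 58.4 to 74.1 TPM against 0.23 to 4.34 TPM (-4.89, SE 0.28). The ETS factor gene Elf5 had 130, 88.2 and 145 TPM in IMCD and at most 1.24 TPM in ATL. Its relative Ehf was present in both segments, at 428 to 613 TPM in IMCD and 59.2 to 247 TPM in ATL (-2.11, SE 0.31), and Elf3 was not called (199 to 503 TPM and 293 to 482 TPM). Klf5 was at 70.6 to 77.5 TPM against 16.2 to 28.1 TPM (-1.67, SE 0.18).

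Of 19 prostaglandin genes tested, 4 were higher in each segment (21.1%; all genes 14.9% and 5.53%). With ATL mice 2 and 3 alone there were 2 and 4 (10.5% and 21.1%; all genes 7.53% and 6.39%). In IMCD stood 3 genes on the route to prostaglandin E2: Pla2g4a, which frees arachidonic acid (22.2 to 50 TPM against 0 to 11.3 TPM), Ptgs1, cyclooxygenase 1 (102, 216 and 154 TPM against 0 to 1.39 TPM), and Ptges, the terminal synthase (442, 515 and 553 TPM against 0 to 6.95 TPM). Ptges values of ATL were 0.01 and 0 TPM in mice 2 and 3 and 6.95 and 6.51 TPM in mice 4 and 6. The receptor genes split, with Ptger1 at 273 to 459 TPM in IMCD against 4.82 to 29.1 TPM in ATL (difference -4.53, SE 0.29). Ptger3 was at 20.5 to 52.6 TPM in ATL against 0.03 to 0.443 TPM (4.84, SE 0.27). Ptgds, the synthase of prostaglandin D2, was at 229, 361, 246 and 275 TPM in ATL and under 1 TPM in IMCD (7.69, SE 0.36, adjusted p = 4.89e-22).

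Of 16 genes of organic osmolytes and the response to osmotic stress, 3 were higher in ATL and 2 in IMCD (18.8% and 12.5%; all genes 14.9% and 5.53%). With ATL mice 2 and 3 alone there were 3 and 4 (18.8% and 25%; all genes 7.53% and 6.39%). Cryab, the small chaperone alpha-B crystallin, was among the 5 most abundant genes of both segments, at 9021 to 11870 TPM in ATL and 7832, 19775 and 15282 TPM in IMCD (difference -0.29, SE 0.22, adjusted p = 0.299). Akr1b3, aldose reductase, which makes sorbitol, was at 6102 to 10008 TPM and 3774 to 7228 TPM (0.66, SE 0.27, adjusted p = 0.0485), under the size required. Nfat5, the factor that answers to salt, was at 47.5, 50.3, 50.2 and 71.4 TPM in ATL and 28.7, 20.2 and 20.4 TPM in IMCD (1.24, SE 0.17). Impa1, which releases inositol, was at 211 to 249 TPM against 68.2 to 106 TPM (1.48, SE 0.18). Slc5a3, which takes up inositol, leaned the other way (27.3 to 118 TPM in ATL, 76.6 to 161 TPM in IMCD; -1.22, SE 0.34), with overlap, and was not called with mice 4 and 6 alone. The chaperone gene Hspb1 was at 648, 1015 and 908 TPM in IMCD against 85.6 to 187 TPM in ATL (-2.59, SE 0.26). The betaine and taurine transporter genes Slc6a12 and Slc6a6 were not called, though Slc6a6 was with mice 2 and 3 alone (-1.28).

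Of 24 glutathione-related and peroxidase genes tested, 2 were higher in ATL and 10 in IMCD (8.33% and 41.7%; all genes 14.9% and 5.53%). Gstm1, a glutathione transferase, was among the 5 most abundant genes of IMCD, counted as for Psca, at 6734, 8410 and 8577 TPM against 31.8 to 80.1 TPM in ATL (difference -7.10, SE 0.22, adjusted p = 9.54e-29). Gstm2 was at 4656, 4368 and 5313 TPM against 6.86 to 8.64 TPM (-9.05, SE 0.25); the Gstm genes are near-identical in part, and reads may be divided between them with error. Outside that cluster, Gsta3 was at 59.2 to 159 TPM in IMCD and 0.21 to 3.89 TPM in ATL. The enzyme that sets the rate of glutathione synthesis has a catalytic and a modifier subunit, and both genes were higher in IMCD, Gclc with 85.4 to 139 TPM against 16.3 to 28.8 TPM and Gclm with 221 to 328 TPM against 33.0 to 39.6 TPM. Gpx1, a peroxidase that spends glutathione, was at 1277 to 1748 TPM against 212 to 441 TPM (-2.27, SE 0.13), and Nqo1 and Txnrd1, further redox enzymes, were higher in IMCD, with differences of -1.95 and -1.40; the libraries of Txnrd1 overlapped. The genes higher in ATL were the cystine transporter gene Slc7a11 (1.48, not called with mice 2 and 3 alone or with mouse numbers entered as a block) and Mgst1, at 35 to 100 TPM in ATL and 9.13 to 14.9 TPM in IMCD (2.43, SE 0.32).

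Glycolysis genes were called in both directions. Of 21 tested, 5 were higher in ATL and 4 in IMCD (23.8% and 19%; all genes 14.9% and 5.53%). There were 6 and 2 for mice 2 and 3 alone (28.6% and 9.52%; all genes 7.53% and 6.39%) and 5 and 5 for mice 4 and 6 alone (23.8% each; all genes 35.1% and 6.30%). Phosphofructokinase, a control point, was represented by Pfkp (194 to 338 TPM in ATL, 7.54 to 19.7 TPM in IMCD; difference 4.15, SE 0.21) and Pfkl (124 to 222 TPM, 43.7 to 84.7 TPM; 1.46, SE 0.17), whereas Pfkm was low in both. The lactate dehydrogenase genes faced each other, Ldhb with 381 to 829 TPM in ATL and 196 to 210 TPM in IMCD (1.69, SE 0.17) and Ldha with 564 to 942 TPM in ATL and 1392 to 1981 TPM in IMCD (-1.10, SE 0.14; -0.85 and not called with mice 2 and 3 alone). The lactate carriers did too, with Slc16a3 at 8.15 to 18.4 TPM in ATL against 0.113 to 1.71 TPM. Slc16a1 was at 6.76 to 24.9 TPM in IMCD against 0 to 1.04 TPM. Of 48 subunits of the respiratory chain, none was higher in ATL and 7 (14.6%; all genes 5.53%) in IMCD. All ATL mice lay below all IMCD mice in 25 (52.1%; all genes 7.57%). For mice 2 and 3 alone 3 were called higher in IMCD (6.25%; all genes 6.39%), and for mice 4 and 6 alone 17 (35.4%; all genes 6.30%). After quantile normalization 4 were called higher in IMCD (8.33%; all genes 8.90%). Cox5a (182 to 258 TPM in ATL, 710 to 923 TPM in IMCD; -1.77, SE 0.10) and Ndufb8 (462 to 1157 TPM, 2118 to 2566 TPM; -1.58, SE 0.14) were called with each set of ATL mice. Of 18 genes of the oxygen pathway, 3 were higher in each segment (16.7%; all genes 14.9% and 5.53%). Hif1a, the hypoxia-inducible factor, was at 211, 412 and 445 TPM in IMCD and 75.8 to 100 TPM in ATL (-1.98, SE 0.21). The prolyl hydroxylase genes that mark it for removal, Egln1 and Egln3, were higher in IMCD, with differences of -1.50 and -1.83. Vegfa, the classical target of Hif1a for vessel growth, was at 52.0 to 73.3 TPM in ATL and 11.3 to 20.6 TPM in IMCD (1.97, SE 0.17).

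Of 11 keratin and other filament genes tested, 1 was higher in ATL and 4 in IMCD (9.09% and 36.4%; all genes 14.9% and 5.53%). Those of IMCD were Krt23, Krt19 (46 to 180 TPM against 1.57 to 6.82 TPM), Krt80 (43.5 to 98.1 TPM against 0 to 1.66 TPM) and Nes, nestin (10.2 to 10.6 TPM against 0.01 to 4.36 TPM). Krt7 was higher in ATL (245 to 627 TPM against 190 to 210 TPM; difference 1.12, SE 0.18), not called with mice 4 and 6 alone, and the common pair of simple epithelia, Krt8 and Krt18, was not called, though Krt18 was with mice 2 and 3 alone (1.20). The actin-binding gene Tmsb4x was among the 5 most abundant of IMCD, at 14757, 11563 and 11273 TPM, and stood at 121 to 264 TPM in ATL (-6.13, SE 0.25). Of 18 basement membrane genes, 8 were higher in ATL (44.4%; all genes 14.9%) and none in IMCD, and 6 (33.3%; all genes 7.53%) and none with mice 2 and 3 alone. The genes higher in ATL included 4 chains of the collagen IV networks of the mature kidney: Col4a3 was at 285, 236, 386 and 317 TPM in ATL and 93.6, 64.2 and 121 TPM in IMCD (1.76, SE 0.18), Col4a5 at 141 to 205 TPM against 21.4 to 51.4 TPM (2.32, SE 0.23). Col4a6 was at 33.9 to 67.8 TPM against 8.10 to 13.4 TPM (2.29, SE 0.23). Col4a4 was called with all mice (1.27) but not with mice 2 and 3 alone (0.65). The laminin gene Lamb1 was at 24.7 to 46 TPM in ATL and 0.897 to 2.48 TPM in IMCD (3.81, SE 0.21), the largest difference of the list, and the main epithelial laminin genes Lama5 and Lamb2 were not called. Interstitial markers summed to 2.76, 7.93, 78.4 and 20.3 TPM in ATL mice 2, 3, 4 and 6 and to 2.32 to 10.6 TPM in IMCD, and their part in these values was not tested.

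Of 17 genes of cystic kidney disease and the cilium, 7 were higher in ATL (41.2%; all genes 14.9%) and none in IMCD. There were 8 (47.1%; all genes 7.53%) with mice 2 and 3 alone and 6 (35.3%; all genes 35.1%) with mice 4 and 6 alone, the latter at the share of all genes. Pkhd1, mutated in recessive polycystic disease, was at 76.5, 139, 98.5 and 86.8 TPM in ATL and 6.59, 1.24 and 1.12 TPM in IMCD (difference 4.96, SE 0.24, adjusted p = 1.01e-21). Pkd2, the polycystin channel, was at 84.0 to 132 TPM against 19.0 to 33.5 TPM (2.24, SE 0.18), and Bicc1, an RNA-binding regulator, at 121 to 183 TPM against 13.4 to 19.8 TPM (3.04, SE 0.21). Iqcb1 and Tmem67, of the cilium base, were higher in ATL by 2.25 and 1.19 (Tmem67 by 0.70 and not called with quantile normalization, 0.79 and not called with a pseudocount of 5 TPM). The count includes Umod, which is also a thick limb marker (below). Pkd1 was not called (13.5 to 42.0 TPM and 13.9 to 24.7 TPM), nor were the transport genes Ift20, Ift88 and Kif3a.

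Of 35 Wnt pathway genes, 10 were higher in ATL and 4 in IMCD (28.6% and 11.4%; all genes 14.9% and 5.53%). Among ligands, Wnt10a was at 57.0 to 113 TPM in ATL and under 1 TPM in IMCD (difference 6.36, SE 0.25), and Wnt5a at 96.0 to 172 TPM against 23.6 to 37.8 TPM (1.95, SE 0.25). Wnt4 stood at 337, 207 and 251 TPM in IMCD and 1.36 to 7.6 TPM in ATL (-6.06, SE 0.24), and Wnt9b, a signal of the ureteric lineage, at 67.9 to 97.5 TPM against 0.96 to 5.88 TPM (-4.67, SE 0.28). Wnt7b, known for its part in forming the medulla, was present in both, at 252 to 424 TPM and 162 to 473 TPM (0.04, SE 0.29, adjusted p = 0.968). Axin2, a common readout of the pathway, was at 4.85 to 11.6 TPM in ATL and 0.263 to 1.34 TPM in IMCD (2.35, SE 0.22). The receptor genes Lrp6, Fzd4 and Lgr4 were higher in ATL by 1.18, 1.69 and 1.28 (Lgr4 by 0.99 and not called with quantile normalization), while the receptor gene Fzd1 was higher in IMCD (-2.15).

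Of 13 ErbB genes, 5 were higher in ATL and 2 in IMCD (38.5% and 15.4%; all genes 14.9% and 5.53%). There were 3 of each with mice 2 and 3 alone (23.1%; all genes 7.53% and 6.39%), and 5 and 2 with mice 4 and 6 alone (38.5% and 15.4%; all genes 35.1% and 6.30%). Erbb4 was at 10.5 to 25.3 TPM in ATL and under 1 TPM in IMCD (difference 4.05, SE 0.31), and Erbb2 at 54.5 to 102 TPM against 22.9 to 35 TPM (1.59, SE 0.25). Egfr, the receptor of epidermal growth factor, was at 52.6, 117 and 122 TPM in IMCD and 11.1 to 34.6 TPM in ATL (-2.23, SE 0.22), with its ligand Tgfa at 20.6 to 27.2 TPM and 0.13 to 7.91 TPM (-2.90, SE 0.33). The neuregulin gene Nrg1, a ligand for ErbB4, was at 3.81 to 13.2 TPM in ATL and under 1 TPM in IMCD. In the insulin-like growth factor axis 3 of 14 genes were higher in each segment (21.4%; all genes 14.9% and 5.53%). Igfbp7 was among the 5 most abundant genes of ATL, at 10436 to 12698 TPM against 1832 to 2808 TPM in IMCD (2.44, SE 0.11). Its call was lost with ATL and IMCD mice alone in the fit. Igfbp6 stood at 24.8 to 50.6 TPM in IMCD and at most 0.31 TPM in ATL. Of 19 retinoic acid genes, 2 were higher in ATL and 3 in IMCD (10.5% and 15.8%; all genes 14.9% and 5.53%). The IMCD had the synthesis gene Aldh1a3 at 526, 481 and 607 TPM, against 0 to 10.2 TPM in ATL, the carrier gene Crabp2 at 78.6 to 135 TPM against 0 to 1.84 TPM, and the receptor gene Rarb at 21.9 to 65.0 TPM against 2.16 to 5.33 TPM. Aldh1a7 was on the ATL side (19.8 to 70.7 TPM, under 1 TPM in IMCD), as was its close paralogue Aldh1a1 by 1.41 (0.68 and not called with quantile normalization, 0.75 and not called with a pseudocount of 5 TPM), and reads of that pair may be divided with error.

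Of 15 secreted and luminal protein genes tested, 6 were higher in ATL and 4 in IMCD (40% and 26.7%; all genes 14.9% and 5.53%). Only members on the IMCD side are described here. Muc20, a membrane mucin, was at 2559, 3107 and 3519 TPM in IMCD and 6.47 to 22.5 TPM in ATL (difference -7.47, SE 0.23, adjusted p = 2.54e-28). Muc1 was high in both, at 1910 to 2512 TPM in IMCD and 453 to 949 TPM in ATL (-1.54, SE 0.27), and was not called with ATL and IMCD mice alone in the fit. Wfdc2, of the whey acidic protein family, was at 444 to 543 TPM against 1.3 to 23.1 TPM (-5.50, SE 0.42), and Spp1, osteopontin, at 190, 81.5 and 73.0 TPM against 1.35 to 31.8 TPM (-3.66, SE 0.53). Of 17 purinergic and adenosine receptor genes and their partners, 5 were higher in ATL and 1 in IMCD (29.4% and 5.88%; all genes 14.9% and 5.53%). With mice 2 and 3 alone there were 4 and 1 (23.5% and 5.88%; all genes 7.53% and 6.39%). With mice 4 and 6 alone there were 8 and 3 (47.1% and 17.6%; all genes 35.1% and 6.30%). Among them, P2rx5 (0.78 to 23.5 TPM, the low value in mouse 4) and the channel gene Panx1 (5.41 to 9.26 TPM against 0.677 to 1.18 TPM) were higher in ATL. P2ry14, a receptor for UDP-sugars, was at 108, 163 and 166 TPM in IMCD and 0.11 to 6.33 TPM in ATL (-5.87, SE 0.35). P2ry6 was called higher in ATL, where its values were 5.92, 9.74, 33.1 and 7.98 TPM; mouse 4 also had the leukocyte marker sum of 427 TPM given below, whose part was not tested. Of 24 acid-base genes, 3 were higher in ATL and 6 in IMCD (12.5% and 25%; all genes 14.9% and 5.53%), and 1 and 6 with mice 2 and 3 alone (4.17% and 25%; all genes 7.53% and 6.39%). Car2, a carbonic anhydrase, was at 85.2 to 112 TPM in IMCD against 12.5 to 23.1 TPM (-2.44, SE 0.17). The bicarbonate transporter gene Slc4a7 was at 59.2 to 81.1 TPM against 7.48 to 26.6 TPM (-2.28, SE 0.26), and the sodium-hydrogen exchanger gene Slc9a4 at 21.1 to 25.4 TPM against 0 to 2.43 TPM (-3.93, SE 0.29).

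**Figure D4:**
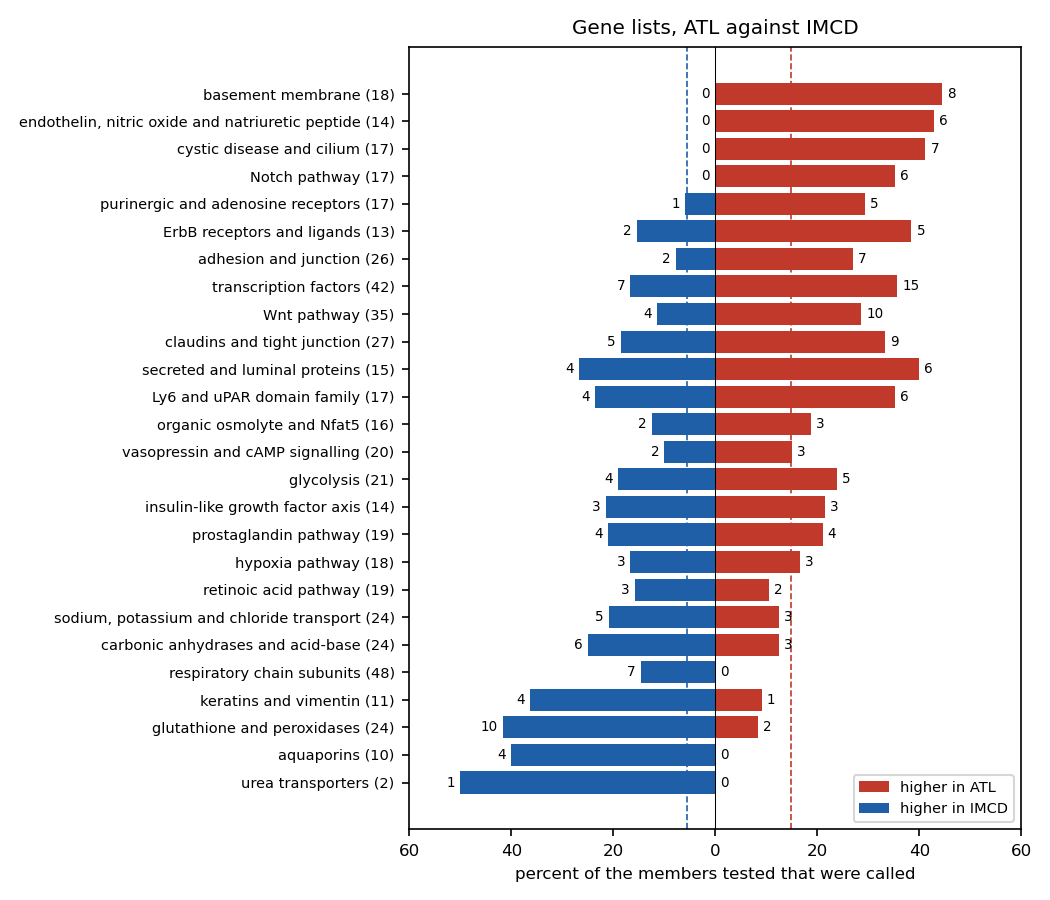
Bars give the percentage of tested members (number in parentheses) of each gene list called higher in ATL (red, to the right) or in IMCD (blue, to the left), with the number called at the tip, and dashed lines give the same percentage over all 33793 genes, 14.9% and 5.53%. Basement membrane (8 of 18) and cystic disease (7 of 17) genes lie beyond the red line, and glutathione genes (10 of 24) and aquaporins (4 of 10) beyond the blue line; with quantile normalization the counts were 7 and 5 (38.9% and 29.4%; all genes 6.34%), and 11 and 4 (45.8% and 40%; all genes 8.90%).

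With mice 4 and 6 alone, where all genes gave 35.1% toward ATL, the shares toward ATL were 37% for junction genes, 40.5% for transcription factors, 42.1% for prostaglandin, 44.4% for basement membrane and 45.7% for Wnt genes. They were 42.9% for the insulin-like growth factor axis and 40% for secreted and luminal proteins. With mice 2 and 3 alone, where all genes gave 7.53%, the same lists stood in that order at 22.2%, 38.1%, 10.5%, 33.3%, 25.7%, 21.4% and 26.7%.

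Markers of other cells were read as sums per mouse. Of 15 such sums and library measures compared between the segments by an exact two-sided permutation test, the smallest p was 0.0571, the least that 4 against 3 mice can give (adjusted p = 0.143). Descending limb markers (Aqp1, Bst1, Fst and 4 more) summed to 2.55, 2.96, 34.5 and 15.8 TPM in ATL mice 2, 3, 4 and 6 and 1.40 to 4.49 TPM in IMCD, far below the 11647 ± 467 TPM (SD, n = 3) of Aqp1 alone in DTL3. Thick limb markers summed to 1116 to 2229 TPM in ATL and 1.89 to 2.59 TPM in IMCD, and Cldn16, Cldn19 and Ppp1r1a carried that sum, while the thick limb's defining genes, both called higher in ATL, were low, Umod (3.18 to 16.1 TPM) and Slc12a1 (0.69 to 25.6 TPM). Urothelial markers summed to 353 to 694 TPM in ATL, nearly all of it Upk3b (352 to 683 TPM), against 8.40 to 11.8 TPM in IMCD. Leukocyte markers summed to 13.7, 12.2, 427 and 24.1 TPM in ATL and 5.31 to 6.12 TPM in IMCD, with Cd74 at 214 TPM and C1qb at 81.2 TPM in ATL mouse 4. Proximal tubule markers summed to 5.02, 6.94, 67.1 and 43.6 TPM in ATL and 0.653 to 4.03 TPM in IMCD. The hemoglobin genes Hba-a2, Hbb-bs and Hbb-bt were listed at 0 in all 7 mice. The part of these cells in the results was not tested. Early-response genes, which dissection can induce, overlapped (382 to 656 TPM and 262 to 1206 TPM), and intercalated cell markers reached at most 11.6 and 6.39 TPM.

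A similar question, thin limb against collecting duct, can be asked of DTL3 and OMCD, which share no library with ATL and IMCD. That pair also differs in zone, inner against outer medulla, and its thin limb is a descending one. The counts below cannot tell these parts from the difference between limb and duct. Between DTL3 and OMCD, 2681 genes (7.93%) were higher in DTL3 and 1584 (4.69%) higher in OMCD. Of the 2323 called genes without overlap higher in ATL, 382 (16.4%; all genes 7.93%) were also higher in DTL3, which is 14.2% of the genes of DTL3. In the opposite direction, 230 of the 2323 were called higher in OMCD, where all genes gave 4.69%. Of the 1515 higher in IMCD, 320 (21.1%; all genes 4.69%) were also higher in OMCD, 20.2% of the genes of OMCD. Here 182 of the 1515 were called the opposite way, higher in DTL3, where all genes gave 7.93%. Whether shared calls exceeded opposite ones beyond these shares was not tested. A test of the difference between both comparisons called 3321 genes (9.83%) on the ATL side and 2906 (8.60%) on the IMCD side. Shared genes included Aqp2, with -11.06 (SE 0.49) between DTL3 and OMCD, a value that did not differ from -11.93 by that test (adjusted p = 0.408), Aqp4, Tmem45b and Spink8 (differences of both -0.67, -0.23 and -0.22, none called) and, on the thin limb side, Sptssb, with 10.69 and 4.86 (difference of both 5.83, called).

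The genes with the largest difference between the comparisons showed where the inner pair and the pair DTL3 and OMCD differ, through either pair. Bsnd was 0.117 ± 0.202 TPM (SD, n = 3) in DTL3 and 95.1 ± 14.2 TPM (SD, n = 4) in OMCD, so that the difference of -6.43 there faced 10.27 between ATL and IMCD (difference of both 16.71, SE 0.30, adjusted p = 2.88e-37). Sostdc1 stood at 1.38 ± 0.746 TPM in DTL3 and 68.3 ± 21.7 TPM in OMCD (difference of both 13.95, SE 0.43). Both genes were thus on the thin limb side in one comparison and on the collecting duct side in the other. On the IMCD side, Slc14a2 was 13.4 ± 13.1 TPM in DTL3 and 1.74 ± 2.70 TPM in OMCD (difference of both -13.11, SE 0.50), and Rnf183 was 175 ± 72.5 TPM in DTL3 and 47.9 ± 31.9 TPM in OMCD. Aqp1, near the floor in both inner segments, gave the remaining one through DTL3 (difference of both -12.28, SE 0.67). Psca was low in both, at 2.10 ± 1.52 TPM in DTL3 and 0.940 ± 0.312 TPM in OMCD.

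**Figure D5:**
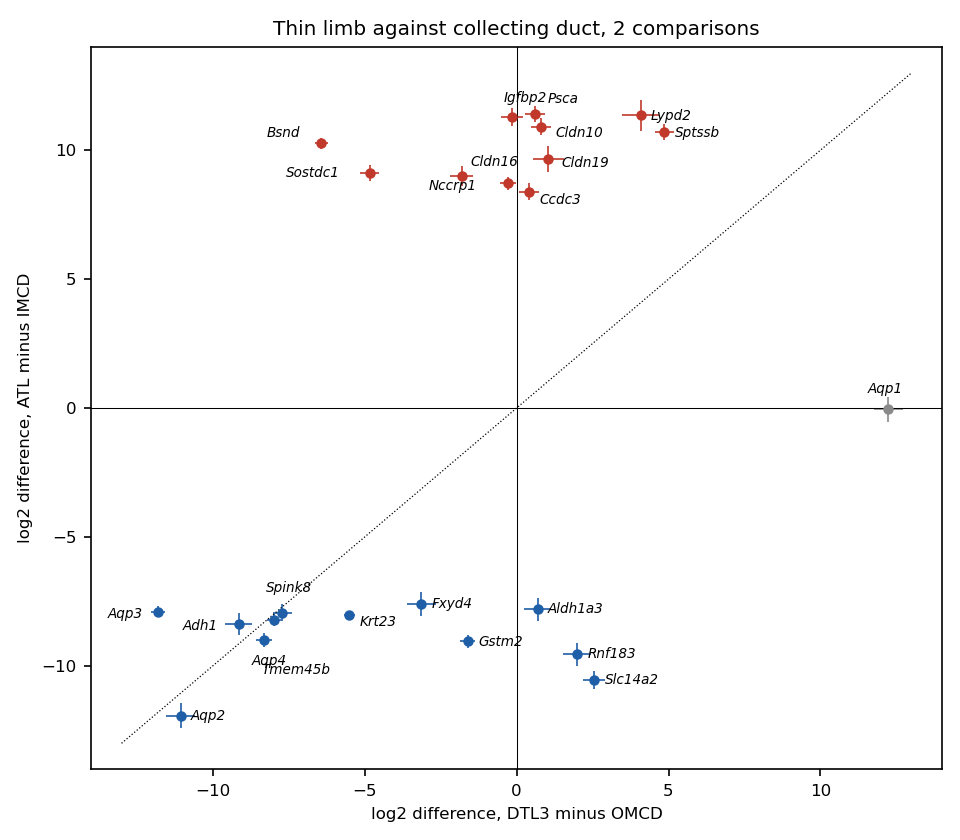
Each point is a gene named for its large difference, plotted by its log2 difference DTL3 minus OMCD (x axis) and ATL minus IMCD (y axis) with SE bars; red genes were called higher in ATL, blue genes higher in IMCD, Aqp1 (grey) was not called, and the dotted line marks equal differences. Aqp2, Aqp4, Tmem45b, Spink8 and Adh1 lie near the line, Bsnd and Sostdc1 in the quadrant of opposite sign, and Psca, Igfbp2 and Cldn10 near 0 on the x axis.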

How the data were processed

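The authors deposited 1 table of TPM values for 54532 genes in 93 libraries; the submitters' processing notes name STAR 2.5.4a and RSEM 1.3.0 without their roles, and the genome build is not given in the sources used here. Every library column summed to nearly the same total, and no pair held identical values. Values were taken as log2(TPM + 1), pieces of a mouse and segment were averaged, and genes at 1 TPM or more in at least 3 of 53 mice were kept. limma 3.58.1 with a mean-dependent prior (R 4.3.3) was fitted to all 15 groups, with Benjamini-Hochberg adjustment over all 33793 genes, and was tested on simulated data. Marker sums were compared by exact two-sided permutation tests (scipy 1.17.1). Named genes were members of gene lists, the 12 largest called differences in each direction, the 3 largest differences between both comparisons in each direction, and the 5 most abundant genes of each segment; some genes that this rule names are not reported here. The members and lists were chosen with earlier results of these data known. Numbers were read as restarting in each segment, since the titles then give 53 mice, as many as the series description counts; on this reading the numbers pair no samples. The 3 single-cell samples were not analysed here. Promoter windows came from RefSeq on GRCm38.p6.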

Additional observations from a re-analysis of the deposited data

Results flagged for a closer look

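Within the 4 ATL mice, 209 values (194 named genes and 15 sums or library measures) were tested for a mouse far from the rest, by its gap to the nearest other mouse as a share of the range on the log2 scale. Dixon's 95% limit for 4 values was passed by 21 of them, where chance gives about 1 in 20. Mouse 4 was lowest for Lypd2 (0.856), Sptssb (0.849), Cldn16 (0.848), Cd59a (0.869), Muc20 (0.882), P2rx5 (0.877), Pkd2 (0.856) and the sum of thick limb markers (0.858). It was highest for Cd74 (0.914), Lypd6b (1.0) and Lama5 (0.876). Mouse 6 was highest for Aqp4 (0.980), Spink8 (1.0), Crabp2 (1.0) and Nfat5 (0.861) and lowest for Gclc (0.902). Mouse 2 was lowest for Pde4a (0.974), Irx1 (0.945) and Erbb4 (0.868), and mouse 3 highest for Cldn7 (0.926) and Hoxd3 (0.834). Aqp4, Spink8, Crabp2, Lypd6b and Hoxd3 were near 0 in the other ATL mice, so these shares rest on values of at most 1.84 TPM.

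The difference between thin limb and collecting duct was not the same in the inner pair (ATL, IMCD) and in the pair DTL3 and OMCD for 5 genes named for it, by limma's test of the difference of both differences. It was 16.71 for Bsnd and 13.95 for Sostdc1, and -13.11 for Slc14a2, -12.28 for Aqp1 and -11.55 for Rnf183. The value for Rnf183 depends on the added 1 TPM, since the gene was listed at 0 in the 4 ATL libraries. Each of the other genes was also near or under 1 TPM in a group compared, so the added 1 TPM enters those values too.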

How the results depend on the processing

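The number of genes higher in ATL depended strongly on the settings. Against 5043 genes, there were 1500 with a pseudocount of 5 TPM, 2143 with quantile normalization, 1051 with ATL and IMCD mice alone in the fit, 2543 with ATL mice 2 and 3 alone, 11849 with mice 4 and 6 alone, and 2841 with mice 2 and 3 and without the 2 IMCD pieces rich in receptor genes, a setting chosen after seeing the data. Leaving out 1 mouse gave 3222 to 7773, the lowest without ATL mouse 4 (3302 without mouse 6) and the highest without ATL mouse 3 (7649 without mouse 2). Genes higher in IMCD (1869) numbered 1103, 3007 and 762 under the first 3 of these settings and 1756 to 2060 with 1 mouse left out. Genes whose mice lay wholly higher in ATL (3394) numbered 5351 with mice 2 and 3, 14256 with mice 4 and 6, 6115 with mice 2 and 3 and fewer IMCD pieces, 2058 over the 13 libraries, and 3633 to 5533 with 1 mouse left out, the highest without ATL mouse 3. Those wholly higher in IMCD (2557) numbered 8286, 3865, 5366 and 1495 in the same order, 4123 with quantile normalization and 2923 to 3731 with 1 mouse left out; fewer mice make separation easier. Genes higher in DTL3 (2681) numbered 1736 with median ratio rescaling and 1373 with quantile normalization. Genes shared by both comparisons on the thin limb side (382) numbered 1102 with ATL mice 4 and 6. The test between comparisons gave 9107 genes on the ATL side (3321) with mice 4 and 6, and 4746 on the IMCD side (2906) with mice 2 and 3. Apart from the separations just named, the cause of these shifts was not tested. Of all calls, 73.0% were higher in ATL, 69.8% with median ratio rescaling, 41.6% with quantile normalization, 54.1% with mice 2 and 3 and 84.8% with mice 4 and 6.

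Of 160 called genes named in the text, none changed sign under any setting. These genes were taken because they were called with all mice, many of them for large differences, and each setting reused the same libraries. Kept signs are therefore no independent evidence. The fit of ATL and IMCD mice alone kept 127 calls, the fewest of all settings. Igfbp7, Muc1 and Ocln were among the 33 lost, and the text does not mark the others. A pseudocount of 5 TPM kept 149 (Adcy6, Aldh1a1, Aqp5, Bst1, Cgn, Hoxb6, Irx5, Notch3, Slc7a11, Tfap2a and Tmem67 were lost). Quantile normalization kept 153 (Aldh1a1, Bst1, Cgn, Ldha, Lgr4, Notch3 and Tmem67 were lost), and the other settings kept at least 154. Leaving out 1 mouse ended the calls of 9: Cgn, Hoxb6 and Slc5a3 without ATL mouse 2, Krt7 without mouse 3, Adcy6, Cgn, Ldha and Slc7a11 without mouse 4, Adcy6, Cgn, Ly6c1 and Marveld2 without IMCD mouse 1, and Hoxb6, Ldha and Slc5a3 without IMCD mouse 2. With the replicate block, mouse numbers entering as a block, 2854 genes were higher in ATL and 2005 in IMCD, and Adcy6 and Slc7a11 lost their call. The shared numbers 2 and 3 gave correlations of -0.023 and 0.282 between the deviations of ATL and IMCD mice, too few pairs to show whether the numbers mark the same animals; no pairing was used. The depth is unknown, so a value listed at 0 sets no limit on the transcript.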

Other observations

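Of 26 adhesion genes tested, 7 were higher in ATL and 2 in IMCD (26.9% and 7.69%; all genes 14.9% and 5.53%). There were 4 and 2 with ATL mice 2 and 3 alone (15.4% and 7.69%; all genes 7.53% and 6.39%) and 12 and 2 with mice 4 and 6 alone (46.2% and 7.69%; all genes 35.1% and 6.30%). Cd9, a tetraspanin of the cell surface, was at 1474, 2084 and 2148 TPM in IMCD and 57.6 to 121 TPM in ATL (difference -4.53, SE 0.18). The gap junction gene Gjb1 was at 51.9 to 77.4 TPM in IMCD and 15 to 34.7 TPM in ATL (-1.32, SE 0.21). Cdh3, P-cadherin, was at 17.6, 20.3, 22.0 and 13.7 TPM in ATL and under 1 TPM in IMCD (4.06, SE 0.18), and the desmosome gene Pkp3 at 36.4 to 85.3 TPM against 14.4 to 19.2 TPM (1.83, SE 0.19). None of these 4 genes overlapped between the libraries of the 2 segments.

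Of 14 genes of endothelin, nitric oxide and natriuretic peptide signalling, 6 (42.9%; all genes 14.9%) were higher in ATL and none in IMCD, and 3 (21.4%; all genes 7.53%) and none with mice 2 and 3 alone. Endothelial markers were called alongside, 6 of 8 higher in ATL with all mice and 3 with mice 2 and 3 alone. With quantile normalization the counts were 3 (21.4%) for this list and 2 (25%) for the endothelial markers, where all genes gave 6.34%. With mice 4 and 6 alone they were 9 (64.3%) and 6 (75%), where all genes gave 35.1%, and the part of endothelial cells in the list was not tested. Ece1, which matures endothelin, was at 47.7 to 55.1 TPM in ATL and 4.48 to 8.18 TPM in IMCD (2.91, SE 0.23). Npr2, the receptor of C-type natriuretic peptide, was at 13.1 to 19.1 TPM against 1.09 to 1.45 TPM (2.96, SE 0.28). Of 17 Notch genes, 6 (35.3%; all genes 14.9%) were higher in ATL and none in IMCD. There were 7 (41.2%; all genes 7.53%) with mice 2 and 3 alone, 6 (35.3%; all genes 35.1%) with mice 4 and 6 alone and 2 (11.8%; all genes 6.34%) with quantile normalization. The ligand gene Jag2 was at 19.8, 25.6, 7.53 and 34.1 TPM in ATL and 0.450 to 1.39 TPM in IMCD (3.55, SE 0.29), and the receptor gene Notch3 at 2.69 to 5.72 TPM against 0.390 to 1.16 TPM (1.60, SE 0.21; 0.70 and not called with quantile normalization, 0.68 and not called with a pseudocount of 5 TPM).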
